A study of Mus musculus with 9 samples.

Results

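Phagocytes clear dead cells by recognising them with surface receptors, engulfing them and breaking them down in lysosomes, and the cholesterol and fatty acids released must then be stored or exported. The 10 genes described here are ones that macrophages use in these steps: Gpnmb, Lgals3, Trem2, Msr1, Cd68, Fabp5, Apoe, Cd63, Lyz2 and Lipa. They form a set of phagocyte and lipid-handling macrophage genes that was chosen by name, with their resection and sham levels in these libraries known. The resection-minus-sham difference is therefore given for them as a description only. All 10 were found among the 14479 genes of the expression matrix, and all 10 had a mean of at least 1 FPKM (fragments scaled to transcript length and to library size), the minimum for a test, which 13249 genes reached.

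The samples were ventricles of newborn CD-1 mice, an outbred stock, operated on at postnatal day 1 and collected at postnatal day 2. A first group of 3 libraries had sham surgery, a second group of 3 had ventricular apical resection, in which the tip of the ventricle is cut away, and the last group of 3 had the same resection together with left vagotomy, the transection of the left vagus nerve. RNA was total RNA from the lower part of the apex, which after resection holds the wound. No group had vagotomy without resection, so vagotomy is compared here within resected hearts. Whether each library is a separate pup is not given in the sources used here, and p-values then measure only the spread between these samples, which may be technical. Group values are mean ± SD over n = 3 libraries, changes are differences of log2(FPKM + 1), which understate the change of low genes, and adjusted p-values are two-sided values of limma with Benjamini-Hochberg adjustment over all tested genes. In whole tissue, fewer cells of a type and less RNA per cell cannot be told apart.

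The libraries had medians of 7.52 to 8.29 FPKM over the genes listed, and their depth is unknown because the values are not counts. Library 3 of the vagotomy group correlated least with the other libraries (median r over genes 0.801, against 0.869 to 0.895 for the other 8). The mitochondrial tRNA gene mt-Ta was listed at 120254 to 1026210 FPKM in the sham and resection libraries and at 39861 to 74442 FPKM in the vagotomy libraries, and its part in the vagotomy contrasts was not tested. The heart muscle genes Myh6 and Actc1 were listed at 0 in all 3 vagotomy libraries and at 1326 FPKM or more in the other 6. The authors' deposited table gives both the status HIDATA for that group, so those zeros are not levels. All 21 pan-macrophage markers (among them Adgre1, Csf1r, Mpeg1 and Ptprc) were above 0 in all 9 libraries, with summed levels of 71.8 to 101 FPKM in sham, 174 to 279 FPKM in resection and 159 to 225 FPKM in vagotomy libraries. Of 14 neutrophil markers 11 were in the matrix, and their summed levels were 24 to 48.4, 227 to 328 and 134 to 369 FPKM in the same order. Lyz2, Lgals3, Cd63 and Cd68 are also expressed by other myeloid cells, as are genes of the pan-macrophage list such as Ptprc and Itgam. The part of either cell type in the values of the members and of these markers was not tested.

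All 10 genes are protein-coding in GENCODE M21, and on the mouse GRCm38 build they lie on separate chromosomes except Cd63 and Lyz2: Gpnmb at chr6:49036546-49070929, Lgals3 at chr14:47367751-47386160, Trem2 at chr17:48346401-48354147, Msr1 at chr8:39581685-39642673, Cd68 at chr11:69664213-69666153, Fabp5 at chr3:10012548-10016607, Apoe at chr7:19696109-19699188, Cd63 at chr10:128900989-128912822, Lyz2 at chr10:117277331-117282321 and Lipa at chr19:34492318-34527474. None of the deposited loci of the 10 genes overlapped that of another gene in the matrix. 3 members have a near-identical copy, so their reads may have been split: the longest coding transcript of Lyz2 matched Lyz1 at 95.8% over 1264 bases, that of Fabp5 matched the processed pseudogene Gm6166 at 98.3% over 409 bases, and that of Cd63 matched Cd63-ps at 98.5% over 812 bases. Lyz1 itself was at 0.0751 FPKM in sham, 0.133 FPKM in resection and 0.281 FPKM in vagotomy in the authors' deposited tables.

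The sequences just before 4 start sites are shown as examples and do not cover all responses below, as Cd63 is left out. They include those of Gpnmb, with the largest ratio after resection, and Apoe, with the largest vagotomy-minus-resection change. Each is the 250 bases before the RefSeq transcript start (GRCm38.p6), 5′ to 3′ on the gene's strand, outside any annotated transcript, with matches to GAGGAA (the core bound by the myeloid factor PU.1) and TGACTCA (the site of AP-1 factors) on either strand in capitals. They lie at chr6:49036268-49036517 (plus strand), chr17:48346151-48346400 (plus strand), chr11:69666171-69666420 (minus strand) and chr7:19699189-19699438 (minus strand) for Gpnmb, Trem2, Cd68 and Apoe.
Gpnmb: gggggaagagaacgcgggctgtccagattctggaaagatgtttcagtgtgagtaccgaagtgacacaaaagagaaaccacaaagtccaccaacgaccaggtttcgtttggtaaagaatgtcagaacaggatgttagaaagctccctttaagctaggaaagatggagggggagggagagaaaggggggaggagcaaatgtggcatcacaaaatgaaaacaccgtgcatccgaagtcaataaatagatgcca
Trem2: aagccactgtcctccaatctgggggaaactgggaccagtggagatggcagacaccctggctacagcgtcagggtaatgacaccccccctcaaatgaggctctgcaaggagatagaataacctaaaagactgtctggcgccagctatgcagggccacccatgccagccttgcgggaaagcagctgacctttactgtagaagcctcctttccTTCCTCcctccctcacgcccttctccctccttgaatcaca
Cd68: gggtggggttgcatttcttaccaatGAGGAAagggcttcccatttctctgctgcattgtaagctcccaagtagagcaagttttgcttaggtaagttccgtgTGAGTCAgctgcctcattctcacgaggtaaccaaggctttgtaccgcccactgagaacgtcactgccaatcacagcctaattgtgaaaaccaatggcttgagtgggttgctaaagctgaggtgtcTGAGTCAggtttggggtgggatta
Apoe: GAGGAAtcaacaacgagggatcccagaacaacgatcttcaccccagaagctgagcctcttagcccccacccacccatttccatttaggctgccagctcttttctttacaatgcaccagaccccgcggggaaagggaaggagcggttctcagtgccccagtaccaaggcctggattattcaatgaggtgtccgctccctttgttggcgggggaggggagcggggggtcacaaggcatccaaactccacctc
Trem2 had 1 GAGGAA match on the reverse strand starting 40 bases before the start, Cd68 had 1 match 225 bases before it and 2 TGACTCA matches on the reverse strand at 149 and 24 bases, and Apoe had 1 GAGGAA match at 250 bases. The promoter table held 8 of the 10 genes, Fabp5 and Msr1 being absent. Apoe had more than 1 window, and a window not shown held a GAGGAA match at 132 bases. The counts that follow are per gene and the shares per window, so the 2 are not directly comparable. In at least 1 window of a gene, GAGGAA was found before 5 of the 8 (Trem2, Cd68, Apoe, Cd63 and Lipa) and in 23.25% of all 32851 windows, and TGACTCA before 1 of the 8 and in 4.46% of windows. The E-box CACGTG, recognised by the lysosomal regulators TFEB, TFE3 and MITF, and its longer form TCACGTG, which contains it, were found before 0 of the 8 and in 6.02% and 3.13% of windows.

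In the sham apex the 10 genes spanned a wide range of levels per length. Fabp5, a cytosolic carrier of fatty acids, was the most abundant at 61.6 ± 15.8 FPKM, followed by Cd63 at 30.1 ± 3.19 FPKM and Lyz2 at 27.2 ± 11.6 FPKM, whose libraries overlapped each other and not those of Fabp5. The libraries of Lyz2 and Apoe also overlapped. Apoe at 13.6 ± 7.62 FPKM and Lipa at 10.3 ± 1.29 FPKM overlapped each other. Msr1 at 2.08 ± 0.994, Cd68 at 1.46 ± 0.828, Lgals3 at 1.03 ± 0.768 and Trem2 at 0.799 ± 0.179 FPKM formed a low group in which neighbours overlapped. Gpnmb was lowest at 0.243 ± 0.106 FPKM, and its libraries lay below those of Trem2. After resection Lyz2 was the most abundant of the 10 at 159 ± 46.9 FPKM, and after resection with vagotomy Lyz2, Fabp5 and Apoe were at 131 ± 23.3, 121 ± 26.8 and 105 ± 7.42 FPKM, with libraries that overlapped among all 3 genes.

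**Figure D1:**
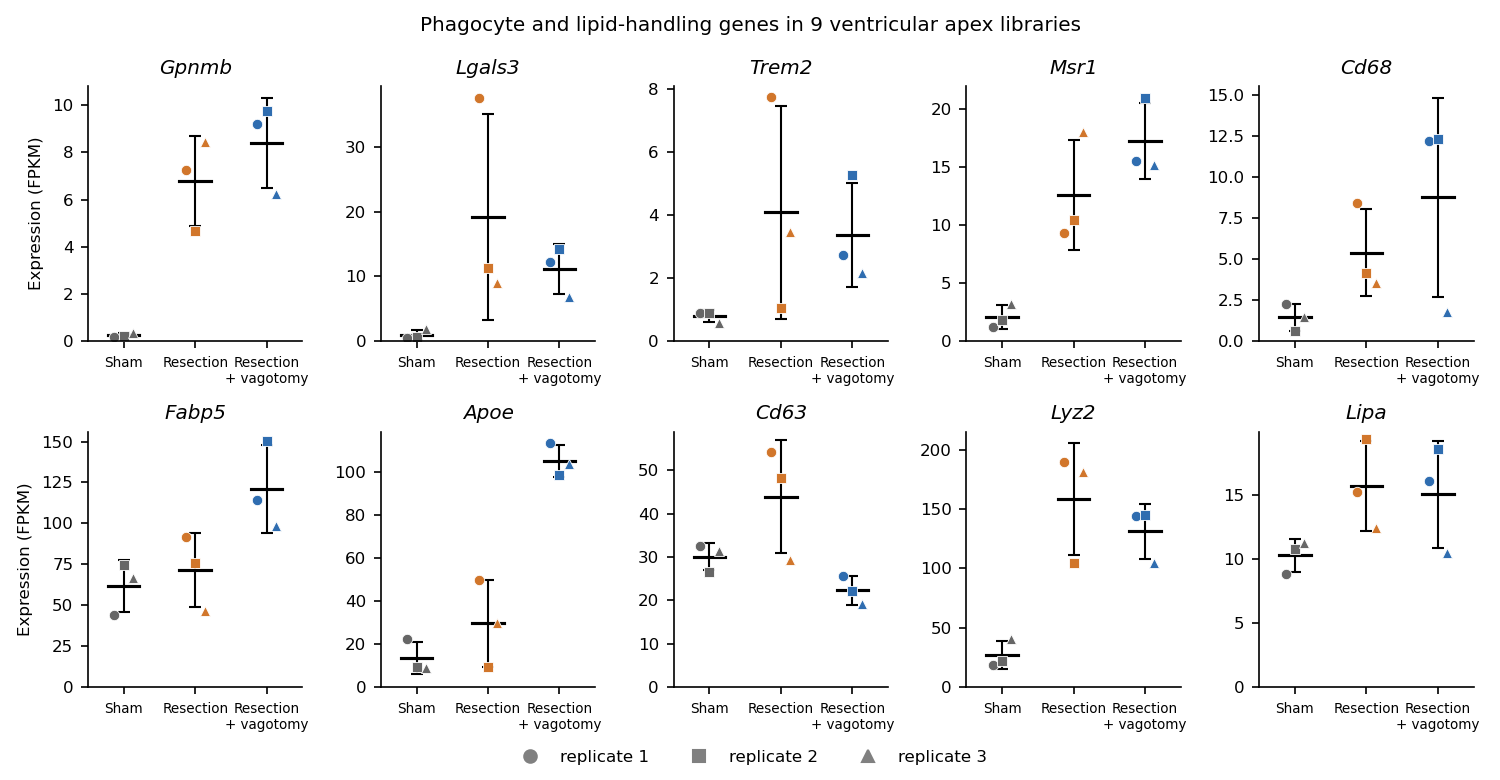
Expression in FPKM (linear axes from 0, each gene on its own scale) of the 10 genes in each of the 9 libraries; markers give the replicate number, thick bars the group mean and thin bars ± 1 SD over 3 libraries. Gpnmb, Lgals3, Msr1 and Lyz2 are near the bottom of their axes in the sham libraries, while Apoe is highest and Cd63 lowest in the vagotomy libraries.

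Among receptors and lectins of the cell surface, 4 genes had higher values in every resection library than in any sham library. Gpnmb, a type I membrane glycoprotein found in phagosomes and lysosomes, was at 0.165, 0.201 and 0.363 FPKM in the sham libraries, at 7.25, 4.68 and 8.43 FPKM after resection and at 9.20, 9.77 and 6.22 FPKM after resection with vagotomy. The highest sham library was far below the lowest of the other 6, and the ratio of the resection mean to the sham mean was 27.9. The resection-minus-sham change was 2.62 ± 0.27 (SE) on the log2 scale, the vagotomy-minus-resection change was 0.28 (95% interval -0.33 to 0.89, adjusted p = 0.567) and the vagotomy-minus-sham change was 2.90 ± 0.27 (adjusted p = 0.000563).

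Msr1, the class A scavenger receptor that takes up modified lipoproteins and debris, was at 1.23, 1.83 and 3.18 FPKM in sham and 9.34, 10.4 and 18.0 FPKM in resection libraries. With vagotomy it was at 15.5, 20.97 and 15.2 FPKM. No sham library reached the lowest resected one, and the resection and vagotomy groups overlapped. Its change was 2.14 ± 0.32 (SE) for resection minus sham. Vagotomy minus resection gave 0.46 (95% interval -0.24 to 1.16, adjusted p = 0.402), and vagotomy minus sham gave 2.60 ± 0.32 (adjusted p = 0.00382).

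Lgals3, which encodes galectin-3, a lectin secreted by activated macrophages, was at 0.463, 0.713 and 1.90 FPKM in sham and 37.5, 11.2 and 8.92 FPKM in resection libraries. The vagotomy libraries were at 12.2, 14.3 and 6.80 FPKM. Resection library 1 was far above the rest, and the resected groups overlapped each other but not the sham group. The change was 3.11 ± 0.50 (SE) for resection minus sham. Between vagotomy and resection the change was -0.52 (95% interval -1.63 to 0.58, adjusted p = 0.555; 0.08 without resection library 1), and vagotomy minus sham gave 2.59 ± 0.50 (adjusted p = 0.0162, or 0.0756 without sham library 2, with a range of 0.00618 to 0.0756 over 20 alternatives).

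Trem2, a receptor for lipids, lipoproteins and apoptotic cells that signals through the adaptor Tyrobp, was at 0.900, 0.905 and 0.592 FPKM in sham and 7.74, 1.05 and 3.48 FPKM in resection libraries. After resection with vagotomy, levels were 2.72, 5.26 and 2.16 FPKM. The groups of resected hearts did not overlap the sham group, but resection library 2 was close to the sham libraries. The change was 1.27 ± 0.47 (SE) for resection minus sham. The vagotomy-minus-resection change was -0.04 (95% interval -1.09 to 1.00, adjusted p = 0.972), and vagotomy minus sham gave 1.22 ± 0.47 (adjusted p = 0.115). With only the 6 compared libraries the latter had an adjusted p of 0.0445, and over the 19 alternatives that tested Trem2 it ranged from there to 0.273.

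The 4 genes of the lysosome and of lysosomal digestion followed different courses. Lyz2, the macrophage lysozyme, was at 18.8, 22.4 and 40.4 FPKM in sham and 190, 105 and 181 FPKM in resection libraries. With vagotomy it was at 144, 145 and 104 FPKM. All 6 resected libraries were above all sham libraries, and the resection and vagotomy groups overlapped. The change was 2.53 ± 0.35 (SE) for resection minus sham. Vagotomy minus resection gave -0.24 (95% interval -1.02 to 0.54, adjusted p = 0.718), and vagotomy minus sham gave 2.29 ± 0.35 (adjusted p = 0.00853, or 0.0515 without sham library 2, with a range of 0.00374 to 0.0515 over 20 alternatives).

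Cd68, the macrophage member of the lysosome-associated membrane proteins, was at 2.28, 0.623 and 1.47 FPKM in sham and 8.43, 4.15 and 3.56 FPKM in resection libraries. The vagotomy libraries were at 12.2, 12.3 and 1.77 FPKM. The resection libraries were all above sham, whereas vagotomy library 3 fell inside the sham range. The change was 1.36 ± 0.58 (SE) for resection minus sham. Between vagotomy and resection the change was 0.38 (95% interval -0.90 to 1.65, adjusted p = 0.73), and vagotomy minus sham gave 1.74 ± 0.58 (adjusted p = 0.0769). Without vagotomy library 3 the vagotomy-minus-sham change was 2.49 (adjusted p = 0.0194), and with the replicate number as a block it had an adjusted p of 0.0393, while over all 20 alternatives the range was 0.0194 to 0.249.

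Lipa, the lysosomal acid lipase that frees cholesterol and fatty acids from esters, was at 8.81, 10.8 and 11.2 FPKM in sham and 15.3, 19.4 and 12.4 FPKM in resection libraries. After resection with vagotomy, levels were 16.1, 18.6 and 10.5 FPKM. The resection group lay above sham by a small margin, and vagotomy library 3 was inside the sham range. The change was 0.55 ± 0.27 (SE) for resection minus sham. The vagotomy-minus-resection change was -0.07 (95% interval -0.67 to 0.54, adjusted p = 0.909), and vagotomy minus sham gave 0.48 ± 0.27 (adjusted p = 0.263).

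Cd63, a tetraspanin of late endosomes and lysosomes that many cell types express, was at 32.4, 26.5 and 31.4 FPKM in sham and 54.2, 48.2 and 29.3 FPKM in resection libraries. With vagotomy it was at 25.6, 22.1 and 19.1 FPKM. All 3 vagotomy libraries were below all 6 others, and resection library 3 was inside the sham range. The change was 0.49 ± 0.28 (SE) for resection minus sham. Vagotomy minus resection gave -0.91 (95% interval -1.52 to -0.30, adjusted p = 0.0877), and vagotomy minus sham gave -0.42 ± 0.28 (adjusted p = 0.328). With the replicate number as a block, the vagotomy-minus-resection difference had an adjusted p of 0.0472, the range over the 20 alternatives was 0.0327 to 0.248, and Cd63 passed in 4 of them. The authors' deposited table gives a q of 0.00578 for that contrast.

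The 2 lipid carriers differed from the receptors, in that their libraries overlapped between sham and resection but not between resection and vagotomy. Cd63 shared this pattern of overlap, with lower values after vagotomy. Of all tested genes, 14% were higher and 12.2% lower in vagotomy than in resection without overlap. Apoe, the apolipoprotein through which macrophages export cholesterol and which binds Trem2, was at 22.3, 9.48 and 8.85 FPKM in sham and 49.7, 9.34 and 30.0 FPKM in resection libraries. The vagotomy libraries were at 113, 98.5 and 104 FPKM. The resection libraries were spread widely, and the vagotomy libraries were close together and all above the highest resection library. The ratio of the vagotomy mean to the resection mean was 3.54. The change was 0.92 ± 0.53 (SE) for resection minus sham. Between vagotomy and resection the change was 2.06 ± 0.53 (95% interval 0.89 to 3.23, adjusted p = 0.0595), and vagotomy minus sham gave 2.98 ± 0.53 (adjusted p = 0.0128, or 0.0641 without sham library 2 and 0.0565 without sham library 3, with a range of 0.0027 to 0.0641 over 20 alternatives).

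The Apoe difference between vagotomy and resection passed the threshold with the replicate number as a block (adjusted p = 0.0255), without resection library 1 (2.56, adjusted p = 0.0341), with a minimum mean of 5 FPKM, and after the trend with GC content and length was removed (1.65, adjusted p = 0.0152). Over the 20 alternatives its adjusted p ranged from 0.0149 to 0.158, and it passed in 5. Without resection library 2, the one with the lowest Apoe, the change was 1.42 (adjusted p = 0.158). The authors' deposited table gives a q of 0.000995.

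Fabp5 was at 43.9, 74.4 and 66.4 FPKM in sham and 91.5, 75.8 and 46.8 FPKM in resection libraries. After resection with vagotomy, levels were 114, 151 and 98.2 FPKM. Sham and resection overlapped, and every vagotomy library was above all 6 others. The change was 0.19 ± 0.33 (SE) for resection minus sham. The vagotomy-minus-resection change was 0.78 (95% interval 0.05 to 1.51, adjusted p = 0.179), and vagotomy minus sham gave 0.97 ± 0.33 (adjusted p = 0.0809). The authors' deposited table gives a q of 0.0219 for vagotomy against resection. After the trend with GC content and length was removed, the vagotomy-minus-sham change was 1.07 (adjusted p = 0.0234; range over the alternatives 0.0223 to 0.199).

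**Figure D2:**
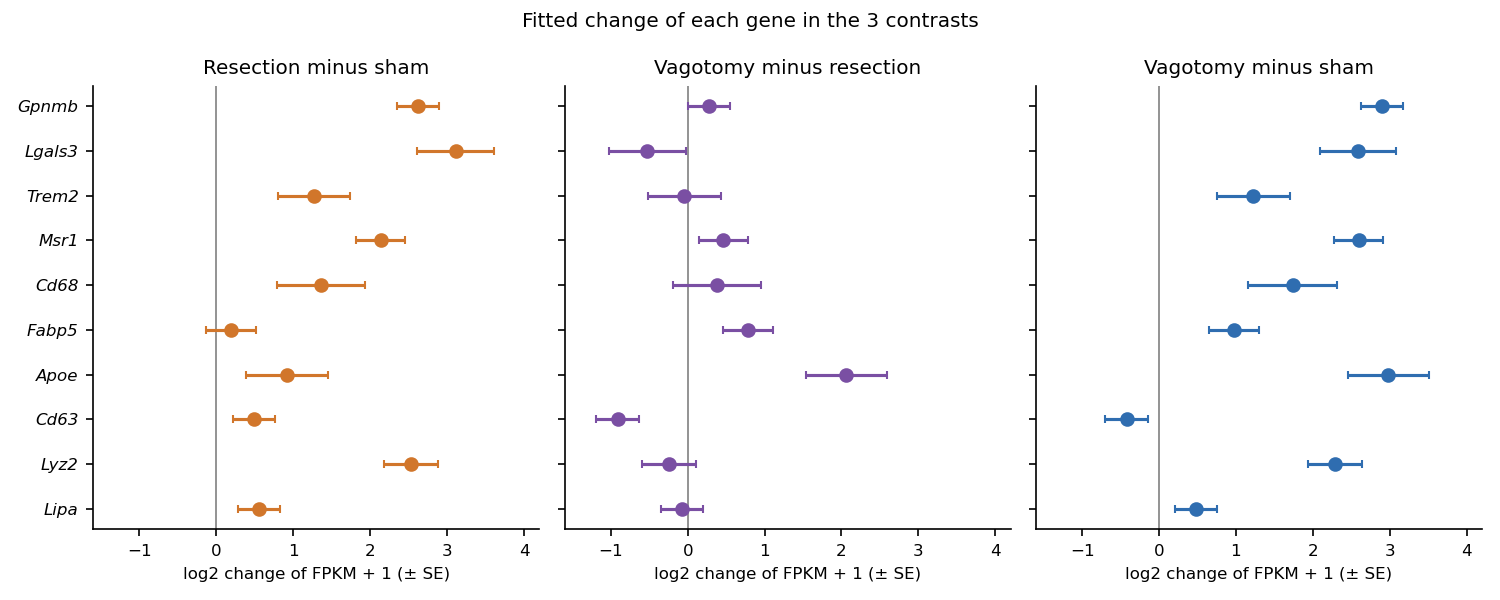
Fitted change of each gene on the log2(FPKM + 1) scale (horizontal axis) with ± 1 SE in the 3 contrasts. In the left panel the points run from 0.19 (Fabp5) to 3.11 (Lgals3), in the middle panel 7 genes lie between -0.52 and 0.46 while Apoe is at 2.06, Fabp5 at 0.78 and Cd63 at -0.91, and in the right panel Cd63 is the one gene below 0.

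Counted over the set, 4 of the 10 genes (Gpnmb, Lgals3, Msr1 and Lyz2) passed the threshold in resection minus sham, all higher, where 0.294% of all tested genes passed in either direction, 0.287% as higher and 0.00755% as lower. In that contrast 6 of 10 had an unadjusted p under 0.05, where 5.89% of all genes did, and 8 of 10 have a q under 0.05 in the authors' deposited table, where 6.15% of the genes do. This contrast was known when the genes were chosen, so nothing is read from those counts. In vagotomy minus resection 0 of 10 passed limma's adjusted threshold, where 3.52% of all genes did (1.97% as higher and 1.55% as lower). At an unadjusted p under 0.05 there were 3 (Fabp5, Apoe and Cd63), against 24.2% of all genes, and the same 3 have a q under 0.05 in the authors' deposited table, where 17.1% of the genes tested and held in the matrix do. With the replicate number as a block, 2 of 10 passed (Apoe higher, Cd63 lower), and the block raised the count over all genes from 466 to 1277. In vagotomy minus sham 5 of 10 passed (Gpnmb, Lgals3, Msr1, Apoe and Lyz2), all higher, where 10.1% of all genes passed, 5.81% as higher and 4.26% as lower. At an unadjusted p under 0.05 there were 8, where 30.1% of all genes were. The vagotomy contrasts share the resection or the sham libraries with the contrast known beforehand, so they are not separate evidence for those libraries' levels.

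The median change of the 10 genes was 1.31 in resection minus sham, 0.12 in vagotomy minus resection and 2.01 in vagotomy minus sham, beside medians of -0.01, 0.02 and 0.03 over all tested genes. Without overlap between the groups, 7 of 10 were higher in resection than in sham, where 6.36% of all genes were, and 0 were lower, where 4.45% were. Between vagotomy and resection 2 of 10 were higher and 1 lower without overlap, where 14% and 12.2% of all genes were. Between vagotomy and sham 7 were higher and 1 lower, where 19.7% and 17% of all genes were. Leaving out vagotomy library 3, the least correlated one, all 5 genes called in vagotomy minus sham passed again, with adjusted p-values from limma of 0.00141 for Gpnmb, 0.0145 for Msr1, 0.0206 for Lyz2, 0.0312 for Lgals3 and 0.0378 for Apoe.

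Libraries of a group also differed along the whole set. Resection library 1 was the highest of its group for 7 of the 10 genes, the exceptions being Gpnmb, Msr1 and Lipa. Vagotomy library 2 was the highest of its group for 8 genes, and vagotomy library 3 was the lowest for 9, Apoe being the exception. The mean log2 level of the 21 pan-macrophage markers was 2.82, 2.54 and 2.84 in the resection libraries and 2.85, 2.84 and 2.56 in the vagotomy libraries, so vagotomy library 3 was also the lowest of its group there. Across the 9 libraries, each gene's profile correlated with the mean profile of the 10, of which it is itself a part, at r = 0.967 for Lgals3, 0.945 for Gpnmb and 0.938 for Lyz2, and at 0.689 for Apoe, 0.673 for Fabp5 and 0.122 for Cd63, given as a description.

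Set against the pan-macrophage markers in the same library, the genes followed different courses. The base itself was 1.81 ± 0.10 in sham, 2.73 ± 0.17 in resection and 2.75 ± 0.17 in vagotomy libraries (mean log2(FPKM + 1) of the 21 markers), so it was nearly the same in both resected groups. Gpnmb stood 1.49 below the markers in sham and 0.20 above them after resection, and Lgals3, Msr1 and Lyz2 likewise had higher relative levels in all 6 resected libraries than in any sham library. The relative levels of Trem2, Cd68 and Lipa did not separate sham from resection, with overlapping libraries. The means were -0.96 and -0.62 for Trem2, -0.57 and -0.14 for Cd68, and 1.68 and 1.31 for Lipa. Apoe was 1.94 above the markers in sham, 1.93 after resection and 3.98 after resection with vagotomy, where its 3 libraries lay at 3.80 to 4.15. Fabp5 was 4.13, 3.39 and 4.16 above them in the 3 groups. Cd63 was 3.15 above them in sham, 2.71 after resection and 1.78 with vagotomy, below all other libraries. These relative levels are descriptions, and a change in the mix of macrophages and other cells that express the same genes or the markers was not tested.

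**Figure D3:**
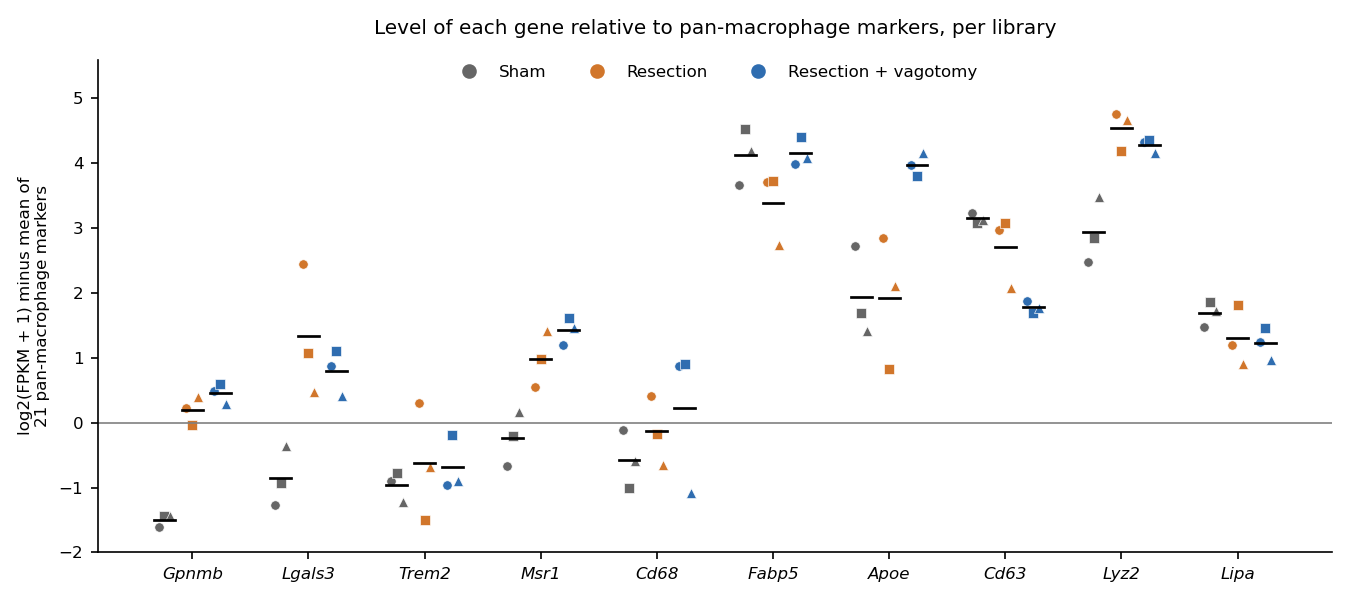
Level of each gene minus the mean of 21 pan-macrophage markers in the same library, both as log2(FPKM + 1) (vertical axis); points are libraries, marker shapes the replicate numbers and black bars group means. Gpnmb, Lgals3, Msr1 and Lyz2 step up from sham to both resected groups, Apoe lies at 3.80 to 4.15 in the vagotomy group, above its other libraries, and Cd63 is lowest there.

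Of the partners of Trem2, 1 of 14 tested passed in vagotomy minus resection. That gene, Tyrobp, the adaptor that carries the Trem2 signal, was at 5.03, 3.81 and 5.63 FPKM in sham and 29.1, 12.2 and 18.0 FPKM in resection libraries. With vagotomy it was at 58.2, 60.4 and 89.6 FPKM. The 3 groups did not overlap. Tyrobp rose by 1.81 ± 0.33 (SE) on the log2 scale in vagotomy minus resection (limma adjusted p = 0.0244, passing in 15 of 20 alternatives) and by 3.58 ± 0.33 in vagotomy minus sham (adjusted p = 0.000428), and the resection-minus-sham change was 1.77 ± 0.33 (adjusted p = 0.0595). Its receptor Trem2 was at 4.09 ± 3.38 FPKM in resection and 3.38 ± 1.65 FPKM in vagotomy libraries. For vagotomy against resection 3 of the 14 have a q under 0.05 in the authors' deposited table, Tyrobp and Pik3ap1 higher and Adam10 lower. Adam10, listed as a sheddase, was at 52.9 ± 17.7 FPKM in resection and 26.4 ± 5.12 FPKM in vagotomy libraries, without overlap. Its q there is 0.00178 and its limma adjusted p was 0.129.

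Of 18 genes listed as adaptor, kinases, phosphatase, sheddases and relatives of Trem2, 14 were tested. After resection 1 of the 14 rose, Ms4a6d, a membrane protein of the MS4A cluster (2.35 ± 0.91 FPKM in sham, 10.3 ± 1.59 FPKM in resection, adjusted p = 0.0445, passing in 7 of 20 alternatives), while 7 of 14 had an unadjusted p under 0.05 and 7 of 14 have a q under 0.05 in the authors' deposited table. In vagotomy minus sham 4 rose: Tyrobp, Ms4a6d (adjusted p = 0.0267), the adaptor Lat2 (1.68 ± 0.303 and 4.94 ± 0.981 FPKM, adjusted p = 0.0187) and the phosphoinositide 3-kinase adaptor Pik3ap1 (0.239 ± 0.0473 and 2.07 ± 1.05 FPKM, adjusted p = 0.039, passing in 11 of 16 alternatives). The inhibitory receptor Cd33, which counteracts Trem2 signalling, was at 0.484 ± 0.267 FPKM in sham and 2.81 ± 1.91 FPKM in resection (adjusted p = 0.341). The list's median change was 0.68 in resection minus sham, -0.0018 in vagotomy minus resection and 0.90 in vagotomy minus sham.

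Of 24 genes of cholesterol and fatty acid handling, 22 were tested; in resection minus sham 0 passed limma's adjusted threshold, with 6 at an unadjusted p under 0.05 and 5 with a q under 0.05 in the authors' deposited table. Pltp, which transfers phospholipids between lipoproteins, was at 11.3, 4.70 and 5.39 FPKM in sham and 7.24, 6.28 and 6.77 FPKM in resection libraries. The vagotomy libraries were at 29.6, 40.9 and 23.7 FPKM. It rose by 2.03 ± 0.32 (SE) in vagotomy minus resection (adjusted p = 0.0173, passing in 19 of 20 alternatives) and by 2.05 ± 0.32 in vagotomy minus sham (adjusted p = 0.0091), and like Apoe its vagotomy libraries overlapped neither other group.

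Fabp3, the fatty acid carrier of heart muscle and a relative of Fabp5, was at 1179 ± 391 FPKM in sham, 683 ± 316 FPKM in resection and 2100 ± 427 FPKM in vagotomy libraries, and rose by 1.69 in vagotomy minus resection (adjusted p = 0.0482, passing in 7 of 20 alternatives). The relative Fabp4 was at 310 ± 55.7, 370 ± 151 and 740 ± 426 FPKM and the relative Fabp7 at 2.70 ± 0.497, 4.34 ± 1.33 and 5.18 ± 2.5 FPKM, and neither passed limma's adjusted threshold in any contrast. The authors' deposited table gives Fabp4 a q of 0.00314 in vagotomy against resection. In vagotomy minus sham Pltp rose together with Npc2, which hands cholesterol out of the lysosome (6.28 ± 0.436 and 12.8 ± 2.61 FPKM, adjusted p = 0.0443, passing in 10 of 20 alternatives), and the lipase cofactor Apoc2 (0.0562 ± 0.0973 and 3.31 ± 1.67 FPKM, adjusted p = 0.0154). The cholesterol exporter Abca1 was at 4.64 ± 1.09, 11.8 ± 5.22 and 8.37 ± 0.729 FPKM (resection minus sham adjusted p = 0.381), the lipid droplet protein Plin2 at 32.4 ± 5.37, 63.3 ± 12.9 and 61.8 ± 17.4 FPKM (adjusted p = 0.413) and Mylip, which degrades lipoprotein receptors, at 6.12 ± 0.42, 12.7 ± 3.08 and 6.94 ± 1.34 FPKM (adjusted p = 0.245).

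The list of 25 uptake and scavenger receptors with their bridging ligands had 21 tested genes, and in resection minus sham 0 passed limma's adjusted threshold, with 4 at an unadjusted p under 0.05 and 4 with a q under 0.05 in the authors' deposited table. In vagotomy minus resection 1 fell: Cxcl16, a membrane chemokine that also binds oxidised lipoprotein, at 2.20 ± 0.451 FPKM in sham, 5.72 ± 0.817 FPKM in resection and 1.61 ± 0.49 FPKM in vagotomy libraries (change -1.37, adjusted p = 0.0263, passing in 13 of 19 alternatives). For that contrast 5 of the 21 have a q under 0.05 in the authors' deposited table. Gas6 and Lrp1 among them were higher, and Olr1, Colec12 and Cxcl16 were lower. In vagotomy minus sham 2 rose: Lrp1, a receptor for Apoe-bearing particles (12.3 ± 4.98 and 46.0 ± 17.7 FPKM, adjusted p = 0.0217), and Cd300lf, a receptor for lipids of dead cells (0.212 ± 0.108 and 4.13 ± 1.89 FPKM, adjusted p = 0.0136). Cd300lf was at 4.03 ± 2.39 FPKM after resection (adjusted p = 0.0668 against sham), and Olr1, another oxidised-lipoprotein receptor, was at 0.181 ± 0.144 FPKM in sham and 2.07 ± 1.94 FPKM in resection (adjusted p = 0.456).

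Of 28 lysosomal genes 27 were tested. In resection minus sham 0 passed limma's adjusted threshold, with 2 at an unadjusted p under 0.05 and 1 with a q under 0.05 in the authors' deposited table (Man2b1). In vagotomy minus resection 1 rose, the lysosomal membrane protein of blood cells Laptm5 (5.68 ± 0.961 and 16.8 ± 4.2 FPKM, adjusted p = 0.0312), which is also among the pan-macrophage markers. In that contrast 8 of the 27 were higher and 5 lower without overlap, and Lamp1, Lamp2, Asah1, Atp6v0d1 and Tfe3 were lower with a q under 0.05 in the authors' deposited table. Lamp1, the main lysosomal membrane glycoprotein, was at 169 ± 8.68 FPKM in resection and 89.7 ± 33.4 FPKM in vagotomy libraries (limma adjusted p = 0.0973). Without overlap between vagotomy and sham, 11 of the 27 were higher and 3 (Lamp1, Lamp2 and Tfe3) lower, where 19.7% and 17% of all genes were. In vagotomy minus sham 8 of 27 rose and 0 fell, where 5.81% of all genes rose and 4.26% fell. Among the 8 were Grn (35.5 ± 11.8 and 90.2 ± 10.6 FPKM), Psap (139 ± 28.1 and 387 ± 115 FPKM), Scarb2, Mcoln1 and Laptm5, and the limma adjusted p-values of the 8 ran from 0.00536 for Laptm5 to 0.0362 for Mcoln1. Psap gives the saposins, cofactors of lysosomal lipid breakdown, and Grn is a lysosomal growth factor precursor. The list's median change was 0.34, 0.09 and 0.25 in the 3 contrasts.

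The regulators Tfeb, Mitf, Tfe3, Nr1h3, Pparg and Spi1 did not pass limma's adjusted threshold in any contrast, while the authors' deposited table gives a q of 0.0178 for Tfe3 in vagotomy against resection and of 0.0471 for Spi1 in resection against sham. Tfeb was at 17.3 ± 7.55, 20.4 ± 12.9 and 18.3 ± 8.92 FPKM in sham, resection and vagotomy libraries, Mitf at 24.8 ± 9.55, 21.7 ± 10.4 and 19.8 ± 7.40 FPKM, and Tfe3 at 10.6 ± 1.65, 14.4 ± 5.92 and 5.73 ± 1.27 FPKM (vagotomy minus resection adjusted p = 0.0721). The liver X receptor gene Nr1h3, a regulator of Apoe and Abca1, was at 0.829 ± 0.22, 1.60 ± 0.688 and 1.55 ± 0.518 FPKM, and Pparg at 3.08 ± 0.251, 5.13 ± 1.23 and 2.95 ± 0.197 FPKM. Spi1, which encodes PU.1, was at 1.32 ± 0.383, 4.81 ± 2.33 and 3.16 ± 2.61 FPKM, and in the vagotomy group it ranged from 0.903 to 6.02 FPKM.

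Among 12 tested tetraspanins, the family of Cd63, in resection minus sham 0 passed limma's adjusted threshold (4 at an unadjusted p under 0.05, and Cd9 and Cd53 with a q under 0.05 in the authors' deposited table). In vagotomy minus sham 3 rose: Cd53 (1.29 ± 0.667 and 11.4 ± 4.37 FPKM, adjusted p = 0.0101) and Cd37 (0.974 ± 0.394 and 6.27 ± 1.77 FPKM, adjusted p = 0.0126), both leukocyte tetraspanins, and Tspan4 (10.9 ± 0.91 and 38.6 ± 12.6 FPKM, adjusted p = 0.0157). Cd9 was at 27.9 ± 6.55, 44.0 ± 6.59 and 50.5 ± 7.46 FPKM. The family's median change in vagotomy minus resection was 0.32, with 10 of the 12 above 0, beside the change of -0.91 of Cd63. Of 5 tested galectins, relatives or binders of Lgals3, 0 passed limma's adjusted threshold in any contrast, with 0, 2 and 3 at an unadjusted p under 0.05 in the order of the contrasts above; Lgals1 was at 898, 430 and 103 FPKM in the vagotomy libraries and at 120 ± 71.7 FPKM in resection. Pmel, the relative of Gpnmb, was at 0.120, 0.122 and 0.134 FPKM for the 3 groups in the authors' deposited tables.

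**Figure D4:**
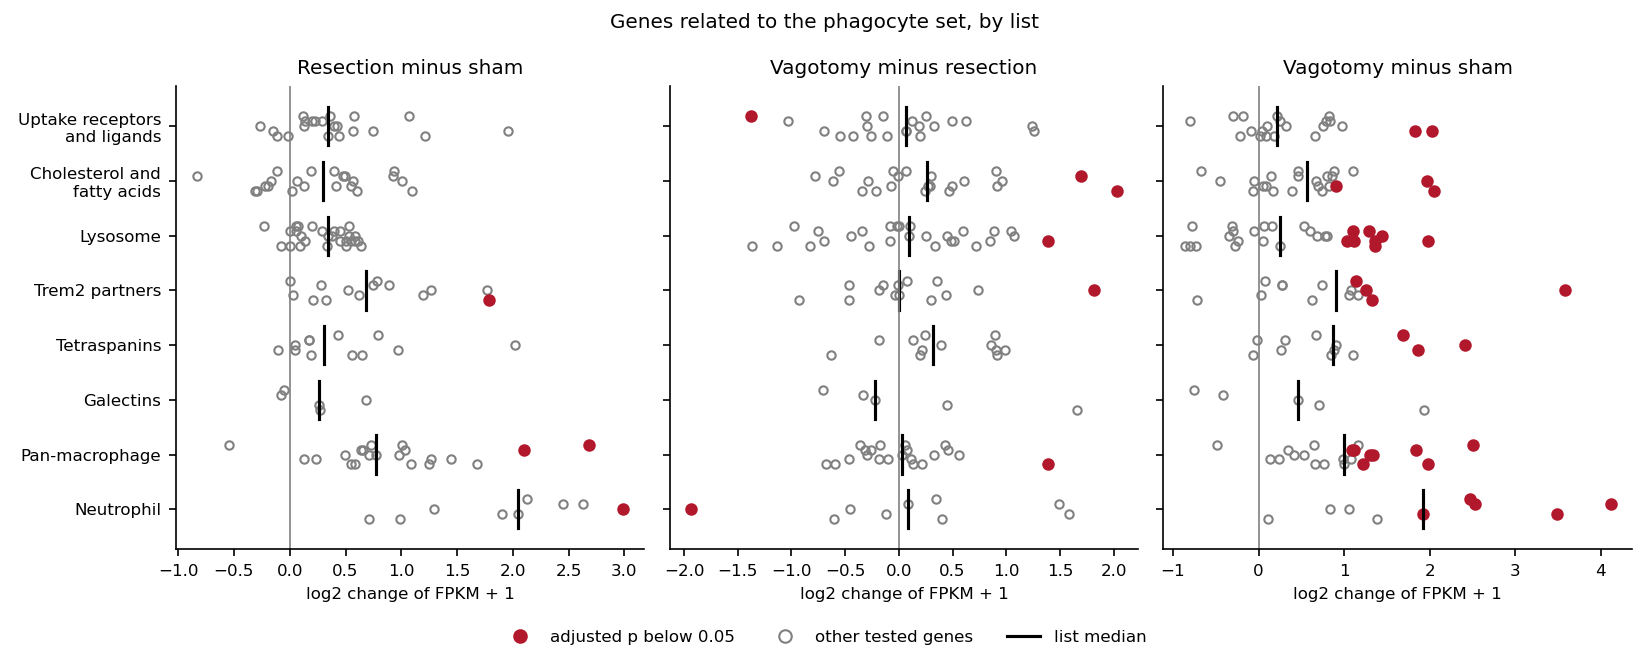
Changes on the log2(FPKM + 1) scale (horizontal axes, each panel on its own range) of the tested genes of 6 related lists and 2 marker lists in the 3 contrasts; red points passed an adjusted p of 0.05, open points did not, and black bars are list medians. The lysosomal list has no red point in the left panel, 1 in the middle panel and 8 in the right panel.

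Levels of cell type markers are given beside those of the 10 genes. Of the 21 pan-macrophage markers, 2 rose in resection minus sham (Itgam, adjusted p = 0.0382, passing in 11 of 20 alternatives, and Mpeg1, adjusted p = 0.00744), 1 rose in vagotomy minus resection (Laptm5) and 8 rose in vagotomy minus sham, with list medians of 0.78, 0.03 and 0.99. In resection minus sham 12 of the 21 had an unadjusted p under 0.05, 13 were higher and 1 (Cx3cr1) lower without overlap, and 10 of the 20 that the authors tested have a q under 0.05 in their deposited table. The complement genes of resident macrophages, C1qa, C1qb and C1qc, were at 9.69, 5.31 and 5.99 FPKM on average in sham and at 14.5, 9.38 and 10.2 FPKM in resection. Of 9 tested neutrophil markers, 1 rose in resection minus sham (S100a8, 20.8 ± 9.77 and 165 ± 45.5 FPKM, adjusted p = 0.0112), the same gene fell in vagotomy minus resection (42.8 ± 15.3 FPKM, adjusted p = 0.0344) and 5 rose in vagotomy minus sham, with list medians of 2.04, 0.09 and 1.92. The markers did not move together between vagotomy and resection: 5 of the 9 changes were above 0, while 2 markers were lower and 0 higher without overlap. Mean S100a9 was 45.4 FPKM in resection and 140 FPKM in vagotomy libraries (limma adjusted p = 0.119). Mean Retnlg was 8.64 and 26.0 FPKM (adjusted p = 0.135). Both overlapped between these groups, and both have a q of 0.000995 in the authors' deposited table. In resection minus sham 8 of the 9 had an unadjusted p under 0.05 and 7 of the 9 have a q under 0.05 in the authors' deposited table. The neutrophil genes Ly6g, Elane and Mpo were at most 0.602 FPKM in the authors' deposited tables. Of 7 adipocyte markers 6 (Adipoq among them) were at most 0.169 FPKM in those tables, and the other, Plin4, was at 10.9 ± 4.88, 10.4 ± 3.64 and 23.7 ± 11.6 FPKM in sham, resection and vagotomy libraries (vagotomy against resection limma adjusted p = 0.148, q = 0.00425 in the authors' deposited table). Of 10 keratinocyte and skin markers 6 (Krt5 among them) were at most 0.419 FPKM. The summed level of the other 4 was 138 to 185, 128 to 164 and 59.7 to 133 FPKM in the 3 groups, most of it Perp (159 ± 23.8 FPKM in sham), and Krt14 was at 0.641 ± 0.208, 2.01 ± 2.11 and 1.70 ± 2.40 FPKM (resection against sham q = 0.00527 in the authors' deposited table). Sfn, the last of them, was at 0.241 ± 0.0634, 1.31 ± 1.22 and 0.897 ± 0.521 FPKM and was under the minimum for a test. Of 10 endothelial markers 1 fell in both vagotomy contrasts (Emcn), and of 10 fibroblast markers 0 passed limma's adjusted threshold in any contrast (0, 4 and 5 at an unadjusted p under 0.05). The cardiomyocyte markers summed to 20825 to 23429 FPKM in sham, 13351 to 23947 FPKM in resection and 16693 to 40129 FPKM in vagotomy libraries, the last without Myh6 and Actc1. Their part in the values of the 10 genes was not tested.

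GC content also moved with the vagotomy contrasts. Across 13118 genes, which are not independent replicates, the log2 change rank-correlated with the GC content of the longest coding transcript at 0.16 in resection minus sham, 0.35 in vagotomy minus resection and 0.38 in vagotomy minus sham. The GC content was 59.5% for Apoe, 57.5% for Trem2, 55.0% for Lgals3, 52.9% for Cd68, 49.6% for Cd63 and Gpnmb, 48.3% for Lyz2, 45.6% for Fabp5, 45.5% for Lipa and 38.4% for Msr1, where the median over genes was 50.0%. Once that trend and the one with length were taken out, the vagotomy-minus-resection change was 1.65 for Apoe, -0.95 for Cd63 (adjusted p = 0.0354), 0.92 for Fabp5 (adjusted p = 0.0509) and 0.92 for Msr1 (adjusted p = 0.0504). Over the 20 alternatives the adjusted p of this contrast ranged from 0.045 to 0.39 for Fabp5 and from 0.0504 to 0.671 for Msr1.

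Across the 9 libraries, the genes outside the set whose log2 levels were most like the mean profile of the 10 were Tgfbi (Pearson r = 0.987), Pirb (0.9747), Cd48 (0.968), Fcgr3 (0.968) and Actn1 (0.960). Tgfbi, an extracellular matrix protein, was at 5.50, 5.38 and 7.04 FPKM in sham and 27.1, 17.4 and 19.5 FPKM in resection libraries. After resection with vagotomy, levels were 25.7, 25.5 and 16.7 FPKM. Pirb, an inhibitory receptor of myeloid cells, was at 0.284 to 0.572 FPKM in sham and at 1.61 to 3.59 FPKM in the other 6 libraries. The 9 libraries share their group structure, so a high r is given as a description of likeness only.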

How the data were processed

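RNA sequencing of 9 mouse apex libraries was analysed from the files the authors deposited. Per the submitters' processing notes the genome build was GRCm38 and the tools were Cuffdiff 2.1.1, Cufflinks 2.1.1 and TopHat2 2.0.9, whose roles are not given in the sources used here. The deposited matrix holds FPKM with 1 added, and this 1 was subtracted. The authors' deposited Cuffdiff tables give group FPKM, p-values and q-values for resection against sham and vagotomy against resection. The deposited FPKM values hold no counts, so depth is unknown and no counting error could be given.

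The scale was log2(FPKM + 1). R 4.3.3 and limma 3.58.1 were used for 1 fit of all 9 libraries with 1 mean per group and a mean-variance trend. Tests covered genes averaging at least 1 FPKM, p-values were adjusted over all 13249 by Benjamini-Hochberg, and the threshold was 0.05. The fit was tested on simulated data, with a log2 change of 1 set in 100 genes and of 2 in 100 others, in the vagotomy group. These genes had a mean log2(FPKM + 1) above 2, so lower genes were not covered. All other genes were simulated without change, and noise was independent between genes and libraries, which real libraries need not follow. The fit called 7% and 69% of the changed genes in vagotomy minus resection (6 false calls), and 4% and 69% in vagotomy minus sham (3 false calls). A gene that did not pass may therefore still have changed. An exact permutation of 3 against 3 cannot reach the threshold and was not used. The 10 genes and all lists were chosen with earlier results of these data known. Named were the 10 genes, the 3 genes of each related list with the smallest p in resection minus sham and those past the threshold (up to 6 in a list), the 5 closest profiles, relatives and regulators; other genes were named after their values were seen. Copies were sought with BLAST 2.17.0 among GENCODE M21 transcripts (at least 100 bases at 95% identity), and promoter windows came from RefSeq. Protein sequences were not used here. Of the genes past the threshold, some are counted and not reported by name here.

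The alternatives were other pseudocounts, filters, scalings and variance settings, the 6 compared libraries alone, the replicate number as a block, and each library left out in turn. Removal of the trend with GC content and length, alone and with the block, was chosen after seeing the data. Replicate numbers come from the sample titles. In the deposited matrix the last sham and resection libraries carry other numbers, so the replicate numbers may give only an order. Resection and vagotomy libraries of the same replicate number had r of residuals of 0.117 to 0.199, against -0.131 to -0.0212 for other pairs. Same-numbered sham and resection libraries gave 0.0129 to 0.498, and sham and vagotomy -0.0193 to 0.186. Residuals were centred within each group, which ties these r values together, so they do not show that the numbers mark pairs.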

Additional observations from a re-analysis of the deposited data

How the results depend on the processing

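The vagotomy-minus-sham changes of Gpnmb and Msr1 passed limma's adjusted threshold under all 20 alternatives, those of Lgals3 and Lyz2 under 19 and that of Apoe under 18. Depth is unknown, and 3 libraries a group limit the precision.

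With the replicate block, genes called numbered 1277 in vagotomy minus resection (main 466) and 2413 in vagotomy minus sham (main 1334), 2 of the 10 genes passed in vagotomy minus resection (main 0) and 1 uptake gene in resection minus sham (main 0). The block changed the calls of Apoe and Cd63 in vagotomy minus resection and of Cd68 in vagotomy minus sham, and no other call of the 10 genes in these contrasts. After removal of the GC and length trend, counts were 99 in resection minus sham (main 39; 79 higher and 20 lower against 38 and 1), 1546 in vagotomy minus resection and 2444 in vagotomy minus sham (1161 higher and 1283 lower against 770 and 564), 2 of the 10 genes passed in vagotomy minus resection, and in resection minus sham 1 uptake, 1 cholesterol, 2 Trem2-partner and 1 tetraspanin genes passed. With the replicate block and that removal together, the counts were 72, 1661 and 2634, 3 of the 10 genes passed in vagotomy minus resection, and 1 uptake, 1 cholesterol and 2 Trem2-partner genes passed. The 6 compared libraries alone gave 23 in resection minus sham and 53 in vagotomy minus resection, 1 of the 10 genes in resection minus sham (main 4) and 0 Trem2 partners (main 1). A pseudocount of 0.1 gave 66 genes in resection minus sham, with 1 uptake, 2 Trem2-partner and 1 tetraspanin genes, and a pseudocount of 5 gave 23 genes, 2 of the 10 and 0 Trem2 partners. A minimum mean of 5 FPKM, which left Trem2 untested, gave 1 of the 10 in vagotomy minus resection and 0 Trem2 partners in resection minus sham, as did no filter and no mean-variance trend for those partners.

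Leaving out 1 library each gave 11 to 66 genes in resection minus sham (11 without sham library 2, 66 without resection library 2), 43 to 596 in vagotomy minus resection (43 without resection library 2) and 83 to 1701 in vagotomy minus sham (83 without sham library 2 and 177 without sham library 3). For the 10 genes the counts were 1 to 4, 0 to 1 and 2 to 6 (2 without sham library 2). For the uptake list and the Trem2 partners in resection minus sham they were 0 to 1 each. In vagotomy minus resection the sign changed for Lgals3, Trem2, Cd68 and Lipa, whose main changes were -0.52, -0.04, 0.38 and -0.07. Over the left-out libraries Lgals3 ranged from -0.90 to 0.078, Trem2 from -0.58 to 0.47, Cd68 from -0.0015 to 1.13 and Lipa from -0.23 to 0.16. Trem2 was at 0.026 with a pseudocount of 0.1. Lipa was at 0.034 after removal of the GC and length trend, with or without the replicate block. Apart from changes in the number of genes or samples tested, the cause was not tested.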
